A study of Mus musculus with 36 samples.

Results

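Cell division needs a set of genes that are switched on together each time a cell copies its DNA and splits, and 40 of them were followed here in mouse lung. They were taken as a list of gene symbols, with the probe set of highest mean over the 36 arrays standing for each gene. Of the 40 genes, 39 had a probe set by that symbol, and Ccnb1, the gene of cyclin B1, was not analysed here. They belong to 18193 genes with a probe set in all. A total of 31 of the 40 were tested, out of 11599 genes tested, because a gene had to exceed a log2 value of 5 in at least 3 arrays. The other 8 with a probe set (Cdc45, Aurka, Aurkb, Plk1, Ttk, Melk, Kif20a and Prc1) lay too low and are given as values without a test.

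The study measured lung RNA of female, age-matched C57BL/6 mice in a model of severe asthma, on single-colour Affymetrix mouse arrays that cover the genome. The ovalbumin (OVA) groups received 3 intraperitoneal injections of 50 µg of this egg protein on days 1, 4 and 7, and then 20 µg into the nose every week for 9 weeks, starting on day 12. The control groups received phosphate-buffered saline (PBS) at the same times. No age in weeks was given. KitWsh_MC, KitWsh_MCifngR and KitWsh_MCigeR mice carry the KitWsh allele and the engraftment codes MC, MCifngR and MCigeR, with 4 OVA arrays and 3 PBS arrays each. The codes were not spelled out. They probably stand for mast cells of different donors, and the genotype label of KitWsh_MCigeR mice also names FcεRIγ-/-, which could describe the donor cells or the recipient. KitWsh mice without engraftment (4 OVA and 3 PBS arrays) lack mast cells because of their Kit allele, which limits Kit in other cells too. WT mice (4 OVA and 4 PBS arrays) are wild type without engraftment. Nothing stated that the samples of a group were separate animals, so the p-values speak only of the spread among these samples.

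In a dividing cell, growth signals release E2F transcription factors from RB family proteins, and E2F then turns on the genes for DNA synthesis. Later, MYB proteins, FOXM1 and the MuvB complex turn on the genes of mitosis, which act through a DNA element called CHR (cell cycle genes homology region), often beside CCAAT boxes bound by NF-Y. In quiescent cells the DREAM complex, built on the same MuvB core, holds both sets of genes down. Most cells of the adult lung are quiescent, and division there is known from repair of the epithelium, from proliferating macrophages and from lymphocytes that answer an antigen. In a piece of lung, more dividing cells and more RNA per dividing cell cannot be told apart.

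Promoters of 35 of the 40 genes were in the RefSeq table used (build GRCm38.p6), as windows of 300 bases that run from 250 bases before the annotated gene start to 50 after it. The CHR letters, TTTGAA or TTTAAA, which read as TTCAAA or TTTAAA on the other strand, stood in 26 of the 35, which is 74.3%, against 27.8% of all 27025 promoters. The CCAAT letters (ATTGG on the other strand) stood in 29 of the 35, or 82.9%, against 37.9% of all promoters. Both CHR and CCAAT letters were present in 23 of the 35, or 65.7%, against 10.9%. Any of 4 E2F strings (TTCCCGC or TTGGCGC or TTCGCGC or TTGCCGC, which read on the other strand as GCGGGAA or GCGCCAA or GCGCGAA or GCGGCAA) stood in 10 of the 35, or 28.6%, against 9.69%. An E2F string and a CCAAT string overlapped in 2 of these promoters. Such matches describe the letters and do not show that a factor binds there. The 6 sequences that follow are the 180 bases before the start of 4 mitotic genes, Cdk1, Mki67, Top2a and Ube2c, and of 2 replication genes, Cdc6 and Mcm5, all of which are described with their array values further on. They are shown because the first 4 carry both CHR and CCAAT letters, and the 2 replication genes carry E2F letters and no CHR letters in these bases. The split is not clean. Cdk1 and Mki67 carry E2F letters too. Mcm5 carries CCAAT letters here, and its window holds the CHR letters TTTAAA before the printed bases. They lie at chr10:69352913-69353092 on the minus strand (Cdk1), chr7:135716380-135716559 on the minus strand (Mki67), chr11:99024190-99024369 on the minus strand (Top2a), chr2:164769749-164769928 on the plus strand (Ube2c), chr11:98907971-98908150 on the plus strand (Cdc6) and chr8:75109329-75109508 on the plus strand (Mcm5). Capitals mark the CHR, CCAAT and E2F letters on either strand, and each line reads 5′ to 3′ towards the gene.
Cdk1: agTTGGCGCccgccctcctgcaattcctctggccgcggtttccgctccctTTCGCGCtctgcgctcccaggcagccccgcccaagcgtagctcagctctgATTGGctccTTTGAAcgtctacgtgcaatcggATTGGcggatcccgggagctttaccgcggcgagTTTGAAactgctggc
Mki67: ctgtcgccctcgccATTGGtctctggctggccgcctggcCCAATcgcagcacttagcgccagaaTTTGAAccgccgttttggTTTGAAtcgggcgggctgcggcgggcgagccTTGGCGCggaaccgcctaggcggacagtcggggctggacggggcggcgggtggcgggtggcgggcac
Top2a: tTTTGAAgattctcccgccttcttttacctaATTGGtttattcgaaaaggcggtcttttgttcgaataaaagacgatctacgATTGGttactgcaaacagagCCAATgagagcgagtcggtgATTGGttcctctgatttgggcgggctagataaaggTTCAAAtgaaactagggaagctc
Ube2c: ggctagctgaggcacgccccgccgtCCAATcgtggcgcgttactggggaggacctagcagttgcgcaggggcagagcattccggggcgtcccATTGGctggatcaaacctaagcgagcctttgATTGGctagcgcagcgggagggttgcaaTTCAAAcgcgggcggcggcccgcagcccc
Cdc6: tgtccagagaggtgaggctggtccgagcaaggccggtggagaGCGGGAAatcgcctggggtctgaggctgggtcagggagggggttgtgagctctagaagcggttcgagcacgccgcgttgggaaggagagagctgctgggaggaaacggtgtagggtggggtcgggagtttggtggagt
Mcm5: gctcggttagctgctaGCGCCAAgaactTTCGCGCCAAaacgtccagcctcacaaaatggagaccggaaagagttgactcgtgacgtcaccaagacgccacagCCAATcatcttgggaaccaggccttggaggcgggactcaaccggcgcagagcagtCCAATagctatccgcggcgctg

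Some arrays stood apart or went against their labels. KitWsh_MCigeR PBS array 2 had a median Pearson correlation of 0.543 with the rest, computed over tested genes, where the other 35 had 0.882 to 0.971, and its beta-actin control differed by 8.43 log2 units between the 3′ and 5′ ends. KitWsh_MC OVA array 2 was the next lowest, with 0.882 and a beta-actin difference of 6.23. WT OVA array 4 had a Kit level of 6.90, where the other WT OVA arrays had 10.6 to 11.0, and KitWsh_MCifngR OVA arrays 2 and 3 and WT OVA array 4 carried Y-linked transcripts (mean log2 7.71, 7.30 and 7.28) although all mice were labelled female. Defining markers of lung were present in every array, with 12.5 to 15.5 for the surfactant gene Sftpc, 14.1 to 15.0 for the type 1 cell gene Ager and 8.75 to 11.7 for the endothelial gene Cdh5. KitWsh_MCigeR PBS array 2 had a mean of 6.14 over 8 endothelial markers, where the other 2 arrays of its group had 10.90 and 11.09, and of 10.0 over 6 alveolar type 2 markers, where they had 13.38 and 13.43. The broad spread of KitWsh_MCigeR PBS array 2 entered every test, because the fit shared 1 estimate of the spread among the 36 arrays, so counts without it are given beside the others.

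OVA raised the division genes most widely in KitWsh_MC lungs. There, 20 of the 40 genes rose and 0 fell (limma, adjusted p under 0.05), where 3.88% of all genes tested rose and 2.64% fell. The median difference over the 39 measured genes was 1.53 on the log2 scale, all 39 were positive, and the median over all 18193 genes was about 0. In 31 of the 39, all 4 OVA arrays lay above all 3 PBS arrays, which held for 8.82% of all genes. Without KitWsh_MCigeR PBS array 2 the count was 24, where 10.7% of all genes rose. Leaving out 1 array of the 2 groups at a time gave 12 to 20 genes, with 12 without KitWsh_MC PBS array 1 and 13 without PBS array 3. Here and below, counts that leave out an array other than KitWsh_MCigeR PBS array 2 lack the share of all genes called in that fit. In WT lungs the same schedule raised 0 of the 40 and lowered 1, Bub1, where 0.535% of all genes rose and 0.828% fell.

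The mean log2 value over the 39 genes was 6.69, 6.56, 6.69 and 6.64 in KitWsh_MC OVA lungs, against 4.94, 5.30 and 5.22 in KitWsh_MC PBS lungs (6.65 ± 0.06, n = 4, against 5.15 ± 0.19, n = 3, mean ± SD). The OVA arrays lay close together and well above the PBS arrays, and no other group had a lower mean than these PBS lungs. WT lungs had 5.79, 5.41, 5.51 and 5.18 with OVA, against 5.51, 5.47, 5.59 and 5.71 with PBS, and the groups overlapped.

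**Figure D1:**
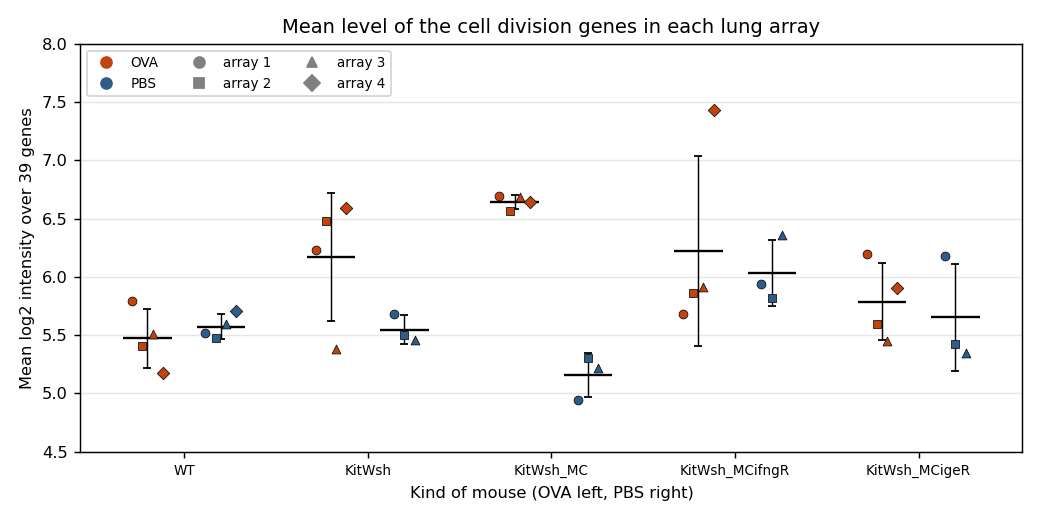
Mean log2 value over the 39 measured cell division genes in each of the 36 arrays, by kind of mouse, with OVA left of PBS. Points are arrays and bars are group means. The 4 KitWsh_MC OVA arrays sit between 6.56 and 6.69, above the 3 KitWsh_MC PBS arrays at 4.94 to 5.30, and KitWsh_MCifngR OVA array 4, at 7.43, is the highest of all.

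The genes of nucleotide supply provide the building blocks of DNA. Rrm2, the small subunit of ribonucleotide reductase that is made in S phase, read as log2 intensities 9.64, 11.16, 10.08 and 9.74 in KitWsh_MC OVA lungs, against 6.93, 7.45 and 6.71 in KitWsh_MC PBS lungs. All OVA arrays were well above all PBS arrays, and array 2 was the highest of the series. Rrm2 rose by 3.13 ± 0.54 (log2 difference ± standard error), or 8.72-fold, with an adjusted p of 0.00087, the steepest rise among the members. Rrm2 in KitWsh OVA lungs was 8.76, 8.75, 7.12 and 8.73, against 7.63, 7.08 and 7.48 in KitWsh PBS lungs. Here 3 OVA arrays were above the PBS arrays and array 3 was among them. For Rrm2, WT OVA lungs read 8.16, 7.64, 7.65 and 7.03, against 7.21, 7.27, 7.70 and 7.94 in WT PBS lungs, with full overlap. The Rrm2 values of KitWsh_MCifngR OVA lungs were 7.74, 7.99, 7.94 and 9.88, against 8.27, 8.11 and 8.83 in KitWsh_MCifngR PBS lungs, and array 4 with OVA was the highest of that kind. Rrm2 in KitWsh_MCigeR OVA lungs was 8.74, 7.74, 7.36 and 8.19, against 8.43, 10.20 and 7.00 in KitWsh_MCigeR PBS lungs, where PBS array 2 was highest. The probe set used for Rrm2 is of a type (suffix _x_at) whose probes may also match other transcripts, so a further probe set was read. It gave 7.25, 6.95, 7.33 and 7.05 in KitWsh_MC OVA lungs, against 4.48, 4.42 and 4.22 in KitWsh_MC PBS lungs, a difference of 2.77. There OVA array 2 was the lowest of its group, not the highest. The _x_at probe set thus read high in the 2 arrays of largest beta-actin difference, KitWsh_MC OVA array 2 (6.23) and KitWsh_MCigeR PBS array 2 (8.43).

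Tk1, the thymidine kinase of dividing cells, read 6.16, 5.58, 5.62 and 6.08 in KitWsh_MC OVA lungs, against 3.97, 3.92 and 3.92 in KitWsh_MC PBS lungs. The 4 OVA arrays were above all 16 PBS arrays of the series. The rise was 1.92 ± 0.51 (adjusted p = 0.0208), at least 1.82-fold. "At least" marks folds whose lower group had all its arrays under log2 5, so that the mean of the higher group was set against 5. For Tk1, WT OVA lungs read 5.76, 5.69, 5.05 and 4.12, against 4.30, 3.97, 4.31 and 4.29 in WT PBS lungs: arrays 1, 2 and 3 with OVA lay above all WT PBS arrays and array 4 lay among them, and the difference of 0.94 ± 0.47 did not pass (adjusted p = 0.342). Tk1 in KitWsh OVA lungs was 5.06, 5.95, 4.42 and 6.47, against 4.19, 4.04 and 4.44 in KitWsh PBS lungs, with array 3 lowest. The Tk1 values of KitWsh_MCifngR OVA lungs were 3.92, 4.52, 4.55 and 6.95, against 4.92, 5.02 and 5.34 in KitWsh_MCifngR PBS lungs, and only OVA array 4 was above the PBS arrays. Tk1 in KitWsh_MCigeR OVA lungs was 5.94, 4.72, 4.04 and 5.02, against 4.90, 4.03 and 3.97 in KitWsh_MCigeR PBS lungs, with overlap. The rise of Tk1 in KitWsh_MC lungs missed the threshold without OVA array 1 (1.82, adjusted p = 0.0547) and without any of PBS arrays 1, 2 and 3 (1.94, 1.92 and 1.92, adjusted p = 0.064, 0.0744 and 0.0793). Rrm1, the large subunit that is also present outside S phase, differed by 0.55 ± 0.31 and did not pass (adjusted p = 0.34).

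Among the 9 genes of replication licensing, the helicase and its clamp, 2 rose in KitWsh_MC lungs and the median difference was 0.82. Cdc6, which loads the helicase onto origins, read 6.46, 6.42, 5.84 and 5.79 in KitWsh_MC OVA lungs, against 4.64, 4.25 and 4.90 in KitWsh_MC PBS lungs. Every OVA array was above every PBS array, and the rise was 1.53 ± 0.33 (adjusted p = 0.00519), at least 2.19-fold. In the other kinds the groups overlapped. Cdc6 in KitWsh OVA lungs was 5.71, 5.66, 5.12 and 5.77, against 5.40, 5.21 and 5.30 in KitWsh PBS lungs. For Cdc6, WT OVA lungs read 5.19, 4.70, 4.91 and 4.64, against 4.91, 4.47, 4.78 and 4.68 in WT PBS lungs. The Cdc6 values of KitWsh_MCifngR OVA lungs were 6.09, 4.72, 5.19 and 6.45, against 5.81, 5.14 and 6.31 in KitWsh_MCifngR PBS lungs, and OVA array 4 was just above the highest of the PBS arrays. Cdc6 in KitWsh_MCigeR OVA lungs was 5.36, 5.10, 4.54 and 5.20, against 5.38, 4.93 and 4.00 in KitWsh_MCigeR PBS lungs.

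Mcm5, a subunit of the ring-shaped helicase Mcm2 to Mcm7, read 10.74, 12.25, 10.64 and 10.27 in KitWsh_MC OVA lungs, against 8.69, 9.03 and 8.75 in KitWsh_MC PBS lungs. The groups did not overlap, and OVA array 2 was the highest of the series. Mcm5 rose by 2.15 ± 0.46, or 4.44-fold (adjusted p = 0.00412). A further probe set gave 6.92, 5.97, 6.24 and 6.83 with OVA, against 4.21, 4.78 and 4.76 with PBS in these lungs, a difference of 1.91. In it OVA array 2 was the lowest of its group. The first probe set, also of the _x_at type, was high in KitWsh_MCigeR PBS array 2 too, at 10.36. For Mcm5, WT OVA lungs read 9.93, 9.32, 9.14 and 8.44, against 8.67, 8.41, 8.78 and 8.52 in WT PBS lungs: 3 OVA arrays lay above the PBS arrays and array 4 lay among them. Mcm5 in KitWsh OVA lungs was 9.69, 9.68, 8.55 and 9.76, against 8.79, 8.97 and 8.69 in KitWsh PBS lungs, with array 3 below all others. The Mcm5 values of KitWsh_MCifngR OVA lungs were 8.97, 8.84, 9.11 and 10.54, against 9.46, 9.31 and 9.87 in KitWsh_MCifngR PBS lungs, and in KitWsh_MCigeR OVA lungs 9.99, 9.19, 8.71 and 8.95, against 9.87, 10.36 and 8.28 in KitWsh_MCigeR PBS lungs, both with overlap.

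The other helicase subunits did not pass in KitWsh_MC lungs. Their differences were 1.14 ± 0.63 for Mcm2, 1.32 ± 0.64 for Mcm3, 0.30 ± 0.32 for Mcm4, 0.69 ± 0.64 for Mcm6 and 0.57 ± 0.42 for Mcm7 (adjusted p between 0.237 and 0.681). For Mcm3 and Mcm7, all 4 OVA arrays were nevertheless above all 16 PBS arrays of the series. KitWsh_MCigeR PBS array 2 read 2.39 for Mcm3 and 6.69 for Mcm7, far below its group, and without it the adjusted p was 0.00675 and 0.0497. Pcna, the sliding clamp of the DNA polymerases, was bright in every kind and differed by 0.41 ± 0.86 (adjusted p = 0.872). It read 11.64, 10.93, 11.49 and 11.85 in KitWsh_MC OVA lungs, against 10.87, 11.00 and 11.35 in KitWsh_MC PBS lungs, with overlap. Cdc45, which activates the helicase, was not tested and differed by 0.82.

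Of the 6 genes for cyclins and Cdk1, 4 rose in KitWsh_MC lungs. Ccne1, cyclin E1, which drives entry into S phase, read 6.66, 8.06, 6.08 and 5.37 in KitWsh_MC OVA lungs, against 3.61, 4.43 and 3.95 in KitWsh_MC PBS lungs. The groups were apart, array 2 with OVA was highest, and the rise was 2.55 ± 0.58 (adjusted p = 0.0079), at least 2.92-fold. A further probe set differed by 1.69 in the same direction. Ccne1 in KitWsh OVA lungs was 5.92, 6.13, 4.97 and 5.02, against 4.92, 4.90 and 4.78 in KitWsh PBS lungs. There too each OVA array was above each PBS array, but the difference of 0.64 ± 0.58 did not pass (adjusted p = 0.756). For Ccne1, WT OVA lungs read 5.71, 5.08, 5.04 and 4.55, against 3.93, 2.98, 4.03 and 5.22 in WT PBS lungs, where 1 PBS array lay among the OVA arrays. The Ccne1 values of KitWsh_MCifngR OVA lungs were 5.02, 4.27, 4.91 and 6.78, against 5.02, 4.78 and 5.27 in KitWsh_MCifngR PBS lungs. Ccne1 in KitWsh_MCigeR OVA lungs was 6.03, 5.29, 5.04 and 5.34, against 4.92, 6.88 and 4.14 in KitWsh_MCigeR PBS lungs, with PBS array 2 above all OVA arrays of that kind.

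Cdk1, the kinase that starts mitosis, read 6.34, 5.75, 6.15 and 6.41 in KitWsh_MC OVA lungs, against 3.63, 4.29 and 3.95 in KitWsh_MC PBS lungs. The lowest OVA array was more than 1 log2 unit above the highest PBS array. The rise was 2.21 ± 0.51 (adjusted p = 0.0082), at least 2.24-fold. Cdk1 in KitWsh OVA lungs was 5.60, 6.72, 4.34 and 6.38, against 4.53, 4.197 and 4.44 in KitWsh PBS lungs, where arrays 1, 2 and 4 with OVA were above all PBS arrays and array 3 was not. For Cdk1, WT OVA lungs read 5.44, 5.03, 4.77 and 4.04, against 4.85, 5.08, 5.02 and 4.98 in WT PBS lungs, with overlap and array 4 lowest. The Cdk1 values of KitWsh_MCifngR OVA lungs were 4.12, 5.35, 5.44 and 7.07, against 4.86, 4.84 and 5.78 in KitWsh_MCifngR PBS lungs, and in KitWsh_MCigeR OVA lungs 5.85, 4.81, 4.46 and 5.74, against 5.61, 4.04 and 4.71 in KitWsh_MCigeR PBS lungs; both overlapped.

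Ccna2, cyclin A2 of S phase and G2, read 7.45, 7.62, 7.46 and 7.53 in KitWsh_MC OVA lungs, against 4.03, 5.30 and 4.96 in KitWsh_MC PBS lungs. The OVA arrays lay close together and above all PBS arrays, a rise of 2.75 ± 0.48 or 6.72-fold (adjusted p = 0.000873). For Ccna2, WT OVA lungs read 5.48, 5.45, 4.73 and 4.67, against 5.64, 5.61, 5.45 and 5.98 in WT PBS lungs, with the OVA arrays mostly lower and some overlap. Ccne2, cyclin E2, rose by 1.76 ± 0.45 in KitWsh_MC lungs (adjusted p = 0.017), at least 3.09-fold. Ccnb2, cyclin B2, read 5.37, 5.32, 5.22 and 5.81 in KitWsh_MC OVA lungs, against 3.52, 4.198 and 4.25 in KitWsh_MC PBS lungs. Its groups did not overlap, but the difference of 1.44 ± 0.48 did not pass (adjusted p = 0.0711), and without KitWsh_MCigeR PBS array 2 the adjusted p was 0.017.

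The mitotic and checkpoint kinases were mostly low on the array, and 1 of the 7, Bub1, rose in KitWsh_MC lungs. Bub1, a kinase of the spindle checkpoint, read 6.30, 5.60, 5.97 and 5.98 in KitWsh_MC OVA lungs, against 3.99, 4.81 and 4.98 in KitWsh_MC PBS lungs. The rise of 1.37 ± 0.36 (adjusted p = 0.0209) was at least 1.95-fold. In WT lungs Bub1 fell, with 4.91, 4.24, 5.19 and 3.99 in WT OVA lungs, against 5.64, 6.04, 6.07 and 5.77 in WT PBS lungs. All 4 WT OVA arrays were below all 4 WT PBS arrays, and the difference was -1.30 ± 0.34 (adjusted p = 0.0459). That fall did not pass when any 1 of the 8 WT arrays was left out. Bub1 in KitWsh OVA lungs was 5.53, 5.65, 4.43 and 5.99, against 5.25, 4.99 and 4.82 in KitWsh PBS lungs, with array 3 lowest. The Bub1 values of KitWsh_MCifngR OVA lungs were 6.20, 6.48, 6.50 and 7.70, against 5.40, 5.10 and 6.02 in KitWsh_MCifngR PBS lungs, where each OVA array was above each PBS array and the difference of 1.21 ± 0.36 (adjusted p = 0.293) did not pass. Bub1 in KitWsh_MCigeR OVA lungs was 5.78, 6.03, 5.96 and 6.12, against 6.36, 4.96 and 5.93 in KitWsh_MCigeR PBS lungs, with overlap. The KitWsh_MC rise missed the threshold without OVA array 1 (1.26, adjusted p = 0.0623), without PBS array 1 (1.07, adjusted p = 0.141) and without PBS array 2 (1.47, adjusted p = 0.0511).

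Bub1b, its partner BubR1 in the checkpoint, read 5.87, 5.12, 6.03 and 6.36 in KitWsh_MC OVA lungs, against 5.04, 4.99 and 4.57 in KitWsh_MC PBS lungs. The groups were only just apart, and the difference of 0.98 ± 0.39 did not pass (adjusted p = 0.139). Bub1b in KitWsh OVA lungs was 5.12, 6.21, 4.95 and 5.94, against 5.11, 5.19 and 5.14 in KitWsh PBS lungs, with arrays 2 and 4 with OVA the highest. For Bub1b, WT OVA lungs read 5.10, 5.17, 5.10 and 4.92, against 4.78, 5.10, 4.84 and 4.94 in WT PBS lungs, with overlap. The Bub1b values of KitWsh_MCifngR OVA lungs were 5.12, 5.30, 5.39 and 7.61, against 5.12, 5.11 and 6.07 in KitWsh_MCifngR PBS lungs, where OVA array 4 was more than 1 log2 unit above every other array of the series. Bub1b in KitWsh_MCigeR OVA lungs was 5.28, 5.11, 5.02 and 5.12, against 5.39, 4.75 and 5.01 in KitWsh_MCigeR PBS lungs, with overlap. Aurka, the Aurora kinase of the spindle poles, was untested but read 4.67, 4.67, 4.13 and 4.47 in KitWsh_MC OVA lungs, against 2.50, 3.08 and 2.40 in KitWsh_MC PBS lungs, with no overlap and a difference of 1.83 among values that all lay under 5. The untested differences of Melk, Plk1, Ttk and Aurkb were 1.06, 0.48, 0.46 and 0.02.

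Among the 5 genes of the chromosomal passenger complex and the centromere, 4 rose in KitWsh_MC lungs. Birc5, or survivin, and Cdca8, or borealin, are partners that bring Aurora B to the centromere. Birc5 read 8.23, 8.27, 8.13 and 8.17 in KitWsh_MC OVA lungs, against 5.16, 6.14 and 5.30 in KitWsh_MC PBS lungs. The OVA arrays lay close together and above all 16 PBS arrays of the series. Birc5 rose by 2.66 ± 0.46, or 6.34-fold (adjusted p = 0.00087). Birc5 in KitWsh OVA lungs was 7.10, 7.13, 5.66 and 7.46, against 6.23, 5.91 and 5.62 in KitWsh PBS lungs, where arrays 1, 2 and 4 with OVA were high and array 3 was near the lowest PBS array. For Birc5, WT OVA lungs read 6.16, 5.49, 5.87 and 5.32, against 5.70, 5.70, 6.23 and 5.92 in WT PBS lungs, with overlap. The Birc5 values of KitWsh_MCifngR OVA lungs were 6.18, 6.78, 6.76 and 8.63, against 6.61, 6.23 and 7.44 in KitWsh_MCifngR PBS lungs, with array 4 highest. Birc5 in KitWsh_MCigeR OVA lungs was 6.95, 6.28, 6.11 and 6.23, against 7.08, 5.06 and 5.31 in KitWsh_MCigeR PBS lungs, with PBS array 1 above all OVA arrays.

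Cdca8 read 7.02, 7.75, 7.23 and 6.80 in KitWsh_MC OVA lungs, against 4.45, 4.25 and 4.84 in KitWsh_MC PBS lungs. The groups were far apart, with a rise of 2.69 ± 0.47 (adjusted p = 0.000893), at least 4.59-fold. In the other kinds the groups overlapped. Cdca8 in KitWsh OVA lungs was 6.01, 6.31, 4.52 and 6.48, against 5.41, 5.46 and 5.10 in KitWsh PBS lungs. For Cdca8, WT OVA lungs read 5.11, 4.26, 5.10 and 4.50, against 4.96, 4.84, 5.52 and 4.94 in WT PBS lungs. The Cdca8 values of KitWsh_MCifngR OVA lungs were 5.82, 5.77, 5.98 and 7.69, against 6.01, 5.92 and 6.54 in KitWsh_MCifngR PBS lungs, with array 4 again highest. Cdca8 in KitWsh_MCigeR OVA lungs was 6.16, 4.86, 4.84 and 5.74, against 6.59, 7.41 and 5.16 in KitWsh_MCigeR PBS lungs. Cenpa, the histone H3 variant of centromeres, rose by 1.42 ± 0.38, or 2.67-fold (adjusted p = 0.0208), although 1 OVA array, at 6.23, lay just under 1 PBS array at 6.26. Cenpe, a kinetochore motor, rose by 1.88 ± 0.50 (adjusted p = 0.0219) among values near or under 5, so no fold is given. It passed the filter with 1 KitWsh_MC OVA array, at 5.02, among the 3 arrays above 5. Cenpf, a kinetochore protein of G2 and mitosis, differed by 1.55 ± 0.59 and did not pass (adjusted p = 0.115).

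Of the 5 spindle motor and midzone genes, Kif23 and Nusap1 rose. Kif23, a motor of the central spindle needed to split the cell, read 6.72, 6.74, 6.75 and 7.10 in KitWsh_MC OVA lungs, against 3.41, 5.38 and 5.05 in KitWsh_MC PBS lungs. The rise was 2.22 ± 0.37, or 4.65-fold (adjusted p = 0.000672), and the OVA arrays were above all 16 PBS arrays of the series. PBS array 1 was the lowest of the 36 arrays. Kif23 in KitWsh OVA lungs was 6.90, 6.82, 5.92 and 6.60, against 6.06, 6.05 and 5.30 in KitWsh PBS lungs, where 3 OVA arrays were above and array 3 was among the PBS arrays. For Kif23, WT OVA lungs read 6.06, 5.68, 5.42 and 5.67, against 5.77, 5.25, 5.80 and 6.65 in WT PBS lungs, with overlap. The Kif23 values of KitWsh_MCifngR OVA lungs were 6.16, 6.68, 6.54 and 7.73, against 6.28, 6.36 and 6.22 in KitWsh_MCifngR PBS lungs. Kif23 in KitWsh_MCigeR OVA lungs was 6.15, 6.12, 5.45 and 6.50, against 6.06, 6.06 and 5.65 in KitWsh_MCigeR PBS lungs, and both of these kinds overlapped.

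Nusap1, which bundles microtubules near chromosomes, read 6.24, 4.96, 6.79 and 6.53 in KitWsh_MC OVA lungs, against 3.83, 4.23 and 4.76 in KitWsh_MC PBS lungs. The groups were apart, with OVA array 2 only a little above PBS array 3. The rise was 1.86 ± 0.45 (adjusted p = 0.0113), at least 2.19-fold, and it missed the threshold without PBS array 1 (1.64, adjusted p = 0.0683). Nusap1 in KitWsh OVA lungs was 6.73, 6.69, 6.00 and 7.37, against 6.29, 6.29 and 5.71 in KitWsh PBS lungs, with PBS arrays between the OVA arrays. For Nusap1, WT OVA lungs read 5.67, 4.98, 5.53 and 4.94, against 5.55, 6.10, 6.37 and 6.02 in WT PBS lungs, with overlap and lower values in most OVA arrays. The Nusap1 values of KitWsh_MCifngR OVA lungs were 6.63, 6.30, 6.16 and 8.01, against 6.24, 6.01 and 6.79 in KitWsh_MCifngR PBS lungs. Nusap1 in KitWsh_MCigeR OVA lungs was 6.31, 5.58, 5.07 and 6.12, against 6.26, 4.46 and 5.80 in KitWsh_MCigeR PBS lungs. Kif11, the motor that pushes the spindle poles apart, differed by 0.85 ± 0.36 in KitWsh_MC lungs and did not pass (adjusted p = 0.169). The untested differences were 1.87 for the midzone bundler Prc1 and 0.21 for Kif20a.

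All 3 genes of ubiquitination in mitosis rose in KitWsh_MC lungs. Ube2c, the ubiquitin-conjugating enzyme of the anaphase-promoting complex, read 6.80, 5.13, 7.02 and 6.81 in KitWsh_MC OVA lungs, against 3.94, 3.94 and 4.41 in KitWsh_MC PBS lungs. OVA array 2 was far below the other OVA arrays but still above the PBS arrays. The rise was 2.34 ± 0.51 (adjusted p = 0.00531), at least 2.71-fold. Ube2c in KitWsh OVA lungs was 5.94, 7.51, 6.05 and 7.77, against 5.06, 4.89 and 5.13 in KitWsh PBS lungs. Here every OVA array was above every PBS array, with array 4 the highest of the series, yet the difference of 1.79 ± 0.51 did not pass (adjusted p = 0.0982, and 0.032 without KitWsh_MCigeR PBS array 2). For Ube2c, WT OVA lungs read 5.70, 4.93, 5.16 and 4.58, against 5.15, 5.14, 5.46 and 5.26 in WT PBS lungs, with overlap. The Ube2c values of KitWsh_MCifngR OVA lungs were 5.24, 5.52, 5.71 and 6.84, against 4.72, 4.89 and 5.99 in KitWsh_MCifngR PBS lungs, with overlap. Ube2c in KitWsh_MCigeR OVA lungs was 6.74, 5.44, 5.38 and 5.57, against 6.73, 4.64 and 4.55 in KitWsh_MCigeR PBS lungs, where the first array of either group was more than 1 log2 unit above the rest of its group.

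Cdca3, a mitotic entry factor that brings Wee1 to destruction, read 6.12, 6.69, 6.26 and 6.15 in KitWsh_MC OVA lungs, against 5.00, 4.62 and 4.60 in KitWsh_MC PBS lungs. The rise was 1.56 ± 0.38, or 2.96-fold (adjusted p = 0.0121), with groups apart. It missed the threshold without PBS array 2 (1.50, adjusted p = 0.0567) and without PBS array 3 (1.50, adjusted p = 0.0654). Cdca3 in KitWsh OVA lungs was 5.94, 6.07, 5.07 and 6.47, against 4.58, 4.25 and 4.58 in KitWsh PBS lungs. The groups were apart there too, and the difference of 1.42 ± 0.38 did not pass (adjusted p = 0.0759, and 0.0263 without KitWsh_MCigeR PBS array 2). For Cdca3, WT OVA lungs read 5.03, 4.58, 4.69 and 4.57, against 4.58, 5.17, 4.94 and 4.85 in WT PBS lungs, with overlap. The Cdca3 values of KitWsh_MCifngR OVA lungs were 4.79, 5.02, 5.02 and 7.04, against 5.14, 4.70 and 6.22 in KitWsh_MCifngR PBS lungs. Cdca3 in KitWsh_MCigeR OVA lungs was 5.10, 5.02, 4.58 and 4.89, against 5.70, 5.02 and 4.99 in KitWsh_MCigeR PBS lungs. In both of these kinds the groups overlapped. Cdc20, an activator of the anaphase-promoting complex, rose by 1.12 ± 0.30, or 2.17-fold, in KitWsh_MC lungs (adjusted p = 0.0233), and a further probe set differed by 1.07.

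Both genes of chromosome structure rose in KitWsh_MC lungs. Mki67, which coats mitotic chromosomes and is the usual stain for dividing cells, read 9.72, 8.71, 10.25 and 10.07 in KitWsh_MC OVA lungs, against 6.82, 7.89 and 7.71 in KitWsh_MC PBS lungs. OVA array 2 was the lowest of its group and still above the PBS arrays. Mki67 rose by 2.22 ± 0.58, or 4.64-fold (adjusted p = 0.019). Without PBS array 1 the rise was 1.89 (adjusted p = 0.107) and without PBS array 3 it was 2.33 (adjusted p = 0.0582), and in neither case did it pass. Mki67 in KitWsh OVA lungs was 9.29, 9.67, 7.68 and 9.48, against 8.38, 8.06 and 8.13 in KitWsh PBS lungs, where arrays 1, 2 and 4 with OVA were above the PBS arrays and array 3 below them. For Mki67, WT OVA lungs read 8.40, 8.15, 7.95 and 7.45, against 8.04, 7.99, 8.24 and 8.49 in WT PBS lungs, with overlap. The Mki67 values of KitWsh_MCifngR OVA lungs were 8.21, 8.70, 8.67 and 10.52, against 8.87, 8.54 and 9.18 in KitWsh_MCifngR PBS lungs, with OVA array 4 the highest of the series. Mki67 in KitWsh_MCigeR OVA lungs was 9.06, 8.14, 7.77 and 8.82, against 9.21, 5.63 and 7.98 in KitWsh_MCigeR PBS lungs, with PBS array 2 the lowest of the series.

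Top2a, topoisomerase IIα, which untangles sister chromatids, read 7.78, 7.70, 8.05 and 8.01 in KitWsh_MC OVA lungs, against 4.36, 6.16 and 6.23 in KitWsh_MC PBS lungs. The OVA arrays lay close together, PBS array 1 was the lowest of the series, and the groups were apart. Top2a rose by 2.30 ± 0.53, or 4.92-fold (adjusted p = 0.00812), but by 1.69 without PBS array 1, which did not pass (adjusted p = 0.0892). Top2a in KitWsh OVA lungs was 7.86, 8.23, 6.41 and 8.20, against 7.35, 6.53 and 6.68 in KitWsh PBS lungs, with array 3 below all PBS arrays. For Top2a, WT OVA lungs read 6.99, 6.33, 6.49 and 6.30, against 6.46, 6.49, 6.83 and 7.31 in WT PBS lungs, with overlap. The Top2a values of KitWsh_MCifngR OVA lungs were 6.67, 7.21, 7.28 and 9.31, against 7.45, 7.08 and 7.85 in KitWsh_MCifngR PBS lungs, with array 4 the highest of the series. Top2a in KitWsh_MCigeR OVA lungs was 7.99, 6.70, 6.67 and 7.72, against 7.43, 5.43 and 6.02 in KitWsh_MCigeR PBS lungs, with overlap.

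**Figure D2:**
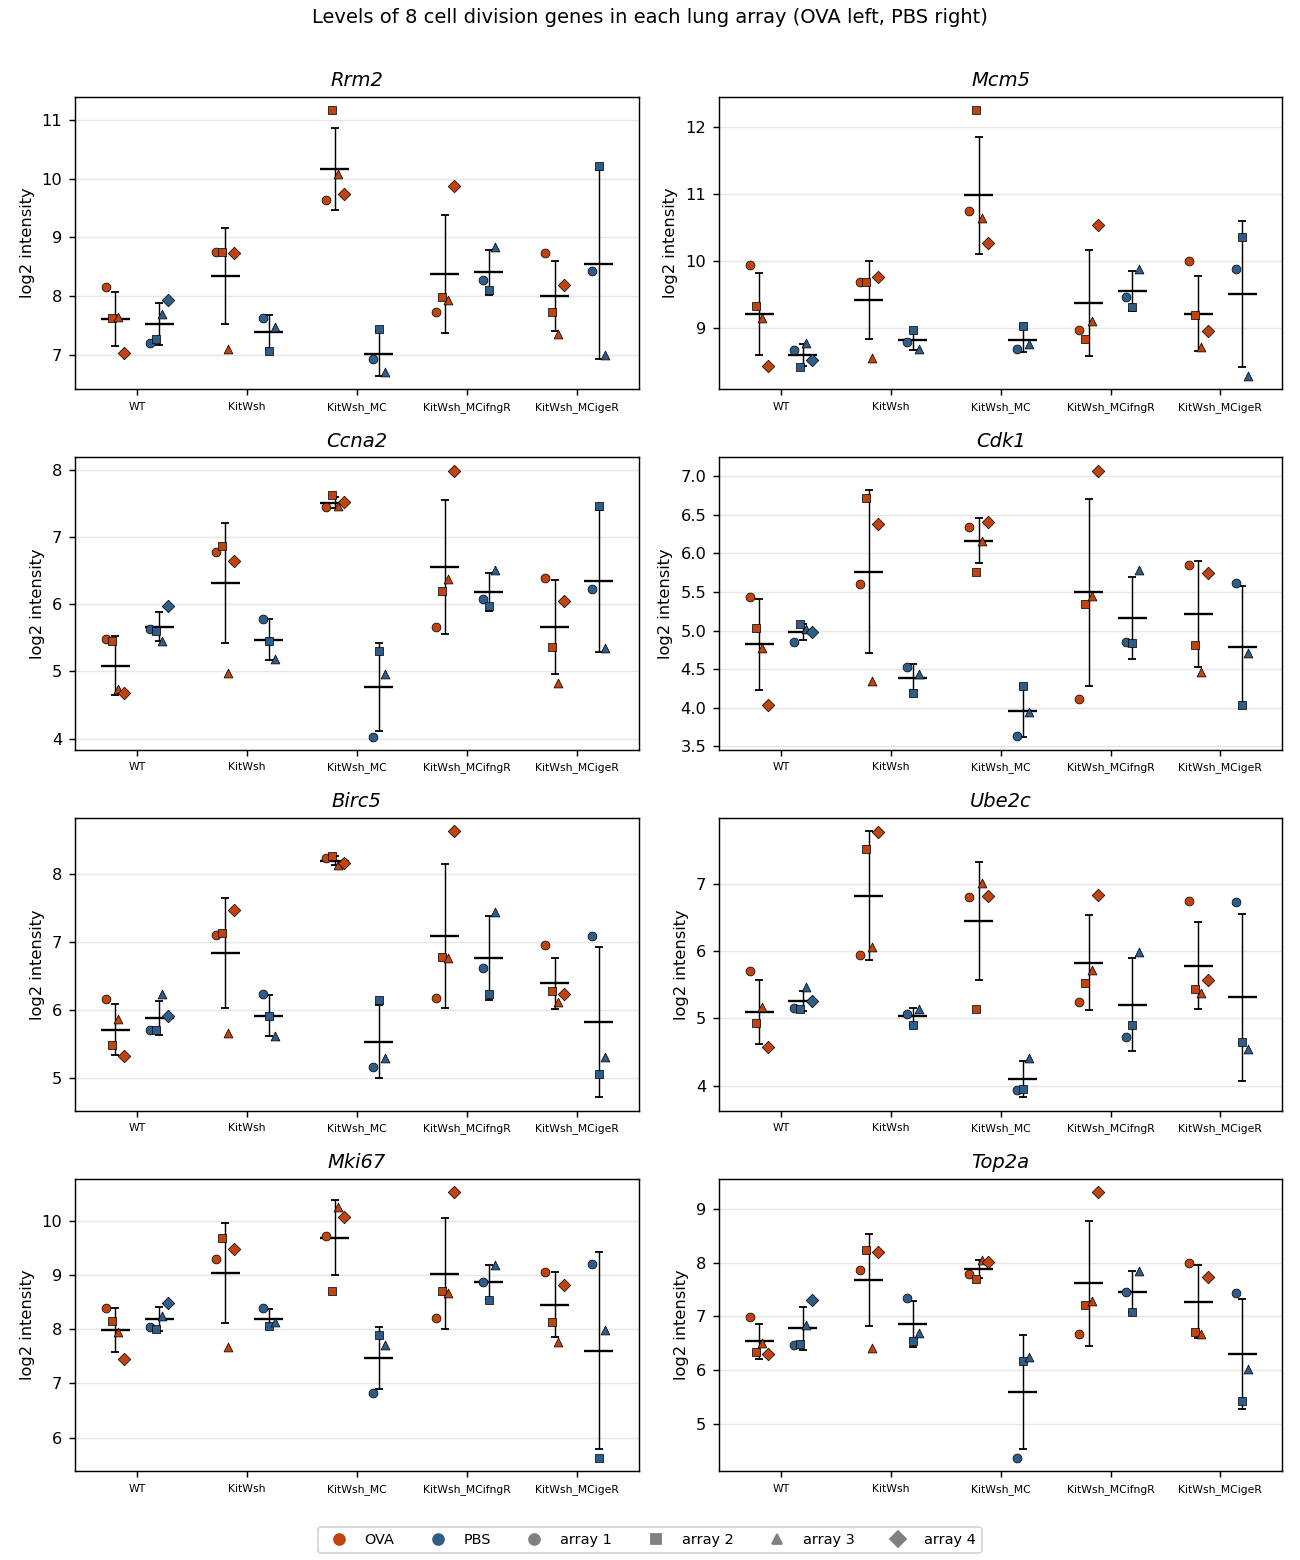
Log2 values of Rrm2, Mcm5, Ccna2, Cdk1, Birc5, Ube2c, Mki67 and Top2a in the 36 arrays, 1 panel a gene, by kind of mouse and with OVA left of PBS. Points are arrays and bars are group means. In all 8 panels the KitWsh_MC OVA points lie above the KitWsh_MC PBS points, and in the WT points the groups overlap.

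**Figure D3:**
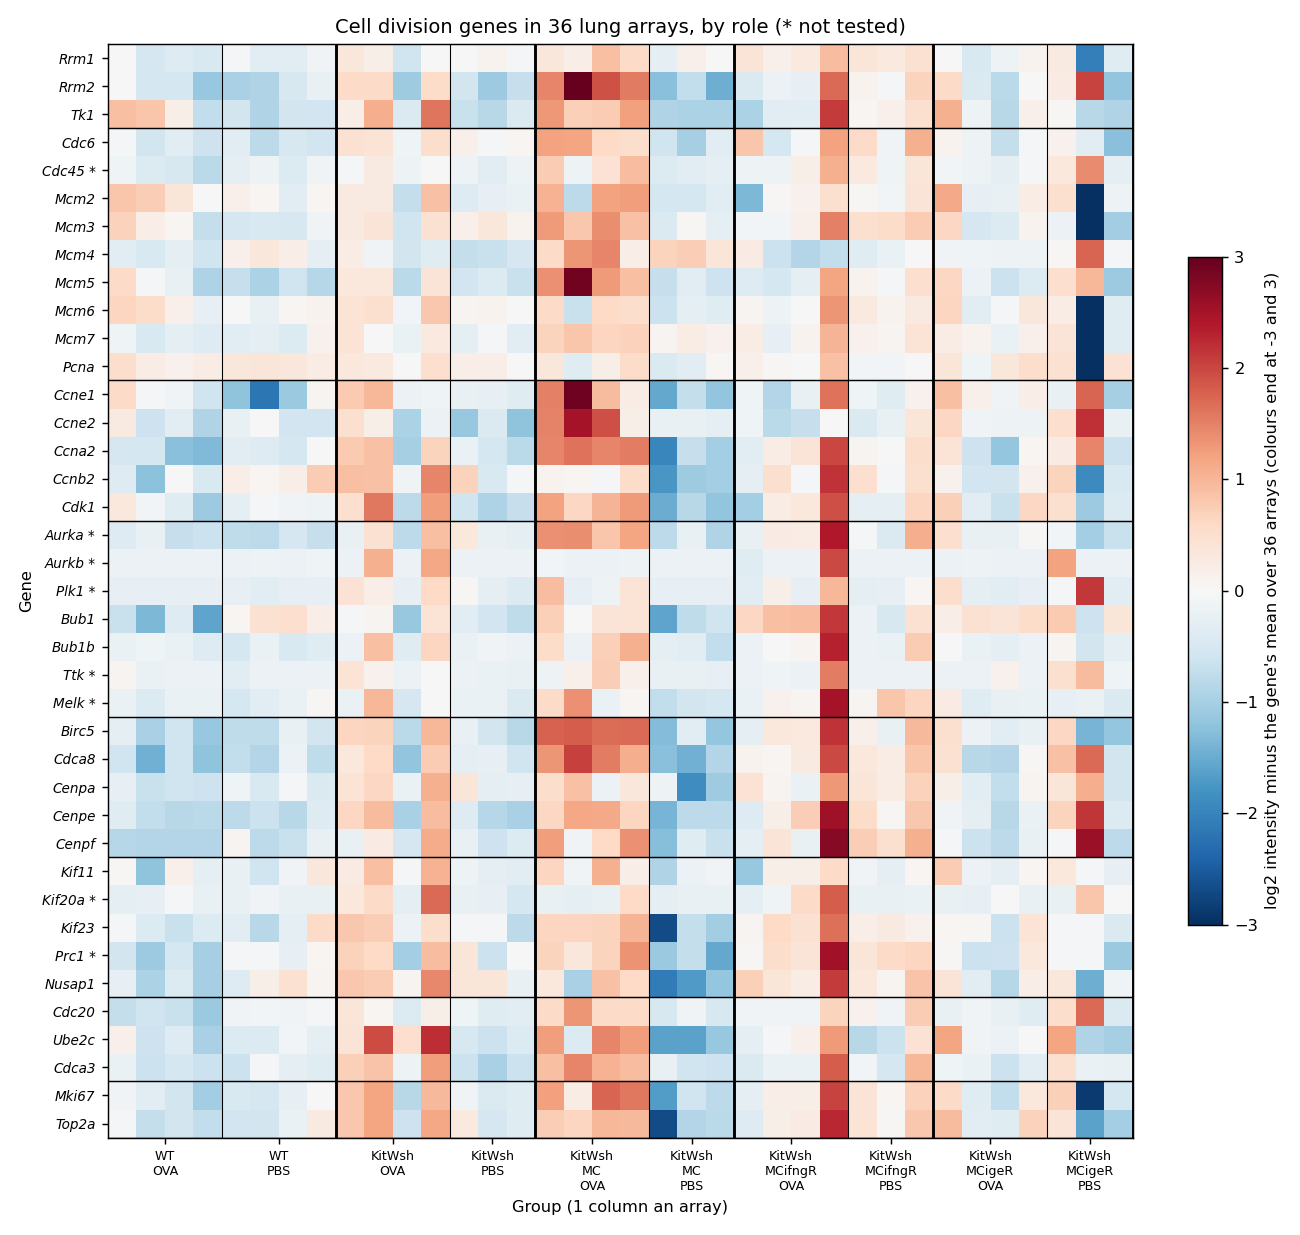
Log2 value of each of the 39 measured genes, grouped by role, in each of the 36 arrays, shown as the difference from the mean of that gene over all arrays. The KitWsh_MC OVA arrays are high and the KitWsh_MC PBS arrays low across roles, KitWsh_MCifngR OVA array 4 is high in nearly all rows, and KitWsh_MCigeR PBS array 2 is uneven.

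Other probe sets of these genes were read as well. A further 45 probe sets matched the 39 genes, and 17 of them, from 14 genes, exceeded log2 5 in at least 3 arrays. All 17 had a higher mean in KitWsh_MC OVA than in KitWsh_MC PBS lungs. The filter counted the KitWsh_MC OVA arrays too, so it could favour probe sets that were high there. The direction of the dimmer further probe sets is not given here. Of the 31 genes tested, 29 passed the filter on the arrays outside the KitWsh_MC groups alone. The other 2, Cenpe and Kif11, needed 1 KitWsh_MC OVA array each to pass it, so the choice of genes favoured a rise in them, and without them 19 of the 40 genes were called. Beta-actin 3′ to 5′ differences ran from 2.21 to 6.23 in KitWsh_MC OVA arrays and from 2.33 to 3.41 in KitWsh_MC PBS arrays. With this value as a covariate 23 of the 40 genes rose. The share of all genes that rose in that fit is not given here, so 23 cannot be set against 20.

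In KitWsh lungs, without engraftment, 0 of the 40 genes passed in either direction, where 0.138% of all genes rose and 0.483% fell (limma, adjusted p). At an unadjusted p under 0.05, 6 were higher and 0 lower, where 13.1% of all genes reached it in either direction. The median difference over the 39 genes was 0.57 (over all genes, about 0), and 37 of them were positive, from -0.07 for Mcm3 to 1.79 for Ube2c. OVA array 3 was the lowest of the 4 in 37 of the 39 genes, which held for 22.3% of all genes. The mean over the 39 genes was 6.23, 6.48, 5.38 and 6.59 in KitWsh OVA lungs, against 5.69, 5.50 and 5.45 in KitWsh PBS lungs. In 4 genes (Ccne1, Kif11, Ube2c and Cdca3) the groups were nevertheless apart, which held for 5.07% of all genes. Without KitWsh_MCigeR PBS array 2, Ube2c and Cdca3 passed, where 1.4% of all genes rose. With array weights, which let arrays that fit poorly count less, 24 genes were called higher in KitWsh lungs, where 39.8% of all genes were called. Without KitWsh OVA array 1, or without array 3, 1 gene was called.

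In WT lungs the median over the 39 genes was -0.13 (over all genes, about 0), with 13 positive and 26 negative. The groups were apart in 6 genes, all lower with OVA, where 7.96% of all genes were, and in 0 higher, where 5.14% of all genes were. At an unadjusted p under 0.05, 2 were lower and 0 higher, where 15.5% of all genes reached it in either direction. WT OVA array 1 was the highest of its group in 30 of the 39 genes, and array 4, whose Kit level went against its label, had the lowest mean over the genes. Without WT OVA array 4, 0 of the 40 were called.

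In KitWsh_MCifngR lungs, 0 of the 40 genes passed, where 0.103% of all genes rose and 0.0517% fell (limma), and 1 reached an unadjusted p under 0.05, where 5.42% of all genes did. The median over the 39 genes was 0.16 (over all genes, about 0). The mean over the genes was 5.68, 5.86, 5.92 and 7.43 in KitWsh_MCifngR OVA lungs, against 5.94, 5.82 and 6.36 in KitWsh_MCifngR PBS lungs. OVA array 4 stood out: it was the highest of its group in 38 of the 39 genes and the highest of all 36 arrays in 26 of them, which held for 8.77% of all genes. Its beta-actin difference was 3.48. The same array was also the highest of its group in the mean of the mast cell, T cell, B cell, plasma cell, and monocyte and macrophage marker lists, for example 7.80 for mast cells beside 6.03 to 6.67 in the other 3. It was highest too for NK cell, alveolar macrophage, goblet cell and basal airway markers (6.63, 10.14, 9.61 and 6.85). For neutrophil, erythroid, germinal centre B cell and endothelial markers it was the lowest (5.63, 4.34, 5.03 and 10.78). The part of these cells in its division genes was not tested.

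In KitWsh_MCigeR lungs, Mcm3 and Mcm6 were called higher with OVA, where 16% of all genes rose and 2.99% fell. Mcm3 differed by 2.12 ± 0.64 (adjusted p = 0.0458) and Mcm6 by 1.84 ± 0.64 (adjusted p = 0.048), and their groups overlapped. PBS array 2 read 2.39 for Mcm3 and 4.00 for Mcm6, where the other 2 PBS arrays read 7.49 and 6.63 for Mcm3 and 9.19 and 8.59 for Mcm6. Without it, 0 of all genes tested were called, and the differences were 0.56 and 0.21. The count was also 0 without any 1 of the 4 OVA arrays. It was 11 and 13 without PBS array 1 and PBS array 3, where PBS array 2 weighed more in its group. The share of all genes called in those fits is not given here, so these counts are not a result about the division genes. The median over the 39 genes was 0.13 (over all genes, about 0), and the mean over the genes was 6.19, 5.60, 5.45 and 5.90 with OVA, against 6.18, 5.42 and 5.35 with PBS.

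**Figure D4:**
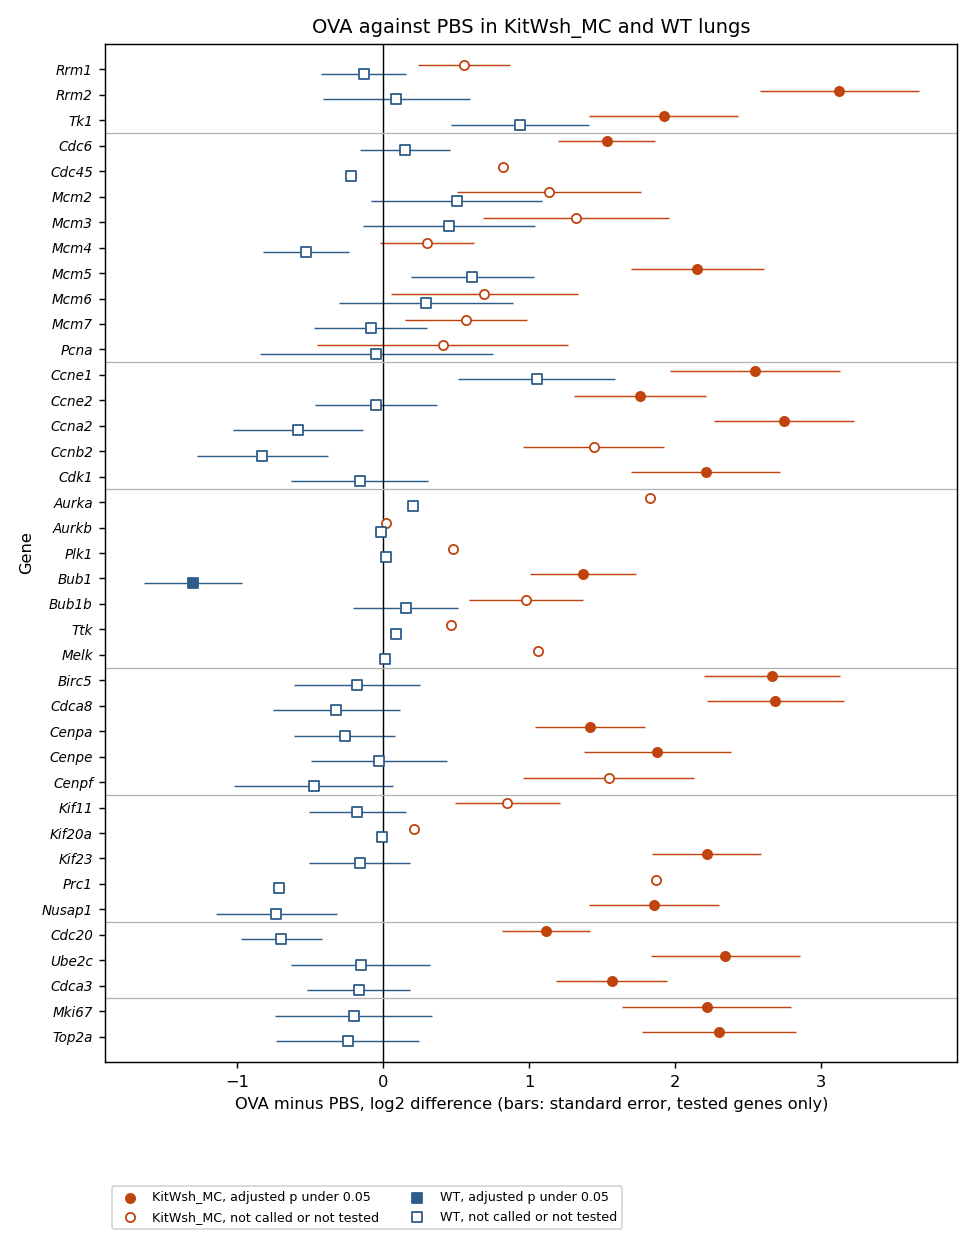
Log2 difference, OVA minus PBS, of each of the 39 measured genes in KitWsh_MC lungs (circles) and WT lungs (squares). Filled points are genes called by limma (adjusted p under 0.05), and open points were not called or not tested. Bars are standard errors and are drawn for tested genes only. All KitWsh_MC points lie above 0, with a median of 1.53, and the median of the WT points is -0.13.

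The mean response over the 5 kinds of mice called 12 of the 40 genes, all higher, where 8.79% of all genes rose and 7.8% fell. The 5 with the smallest p were Ube2c (1.02 ± 0.23, adjusted p = 0.00274), Birc5 (0.86 ± 0.20, adjusted p = 0.00472), Kif23 (0.69 ± 0.16, adjusted p = 0.00509), Tk1 (0.93 ± 0.22, adjusted p = 0.00532) and Cdk1 (0.84 ± 0.22, adjusted p = 0.0107). Over the 4 kinds other than KitWsh_MC, 0 of the 40 genes were called, where 4.03% of all genes rose and 4.66% fell. At an unadjusted p under 0.05, Tk1 and Ube2c were higher and Cdc20 lower, where 26.1% of all genes reached it in either direction. Ube2c then averaged 0.68 ± 0.25 (adjusted p = 0.0819), Tk1 0.68 ± 0.25 (adjusted p = 0.0823) and Cdc20 -0.34 ± 0.15 (adjusted p = 0.141). The count over 5 kinds was 7 without any of WT OVA array 1, KitWsh OVA array 4, KitWsh PBS array 2 and KitWsh_MCifngR PBS arrays 1 and 2.

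Whether the response itself differed between kinds was tested as a difference of differences. Set against WT, the KitWsh_MC response was larger for Ccna2, by 3.33 ± 0.65 (adjusted p = 0.0408), and for Bub1, by 2.67 ± 0.50 (adjusted p = 0.0247), and 0.069% of all genes tested were called in this direction. All 39 genes had a larger difference in KitWsh_MC than in WT mice, with a median of 1.63 (over all genes, 0.01). Cdca8 (3.01), Kif23 (2.38), Birc5 (2.84) and Cdc20 (1.81) did not pass, with adjusted p of 0.0626, 0.0626, 0.0827 and 0.0963. Without KitWsh_MCigeR PBS array 2, 8 genes passed (Rrm2, Ccna2, Bub1, Birc5, Cdca8, Kif23, Nusap1 and Cdc20), where 0.44% of all genes did. Leaving out 1 array of these groups at a time gave 0 to 3 genes, with 0 without any of WT OVA array 2, WT PBS arrays 2 and 3, KitWsh_MC OVA arrays 1 and 4 and KitWsh_MC PBS array 1, and 1 without any of WT OVA arrays 3 and 4, WT PBS arrays 1 and 4 and KitWsh_MC PBS array 3.

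Against KitWsh mice without engraftment, the KitWsh_MC response was called larger for 0 genes, where 0.397% of all genes were called. At an unadjusted p under 0.05, 8 were larger, where 11.6% of all genes reached it in either direction, and the median was 0.80 (over all genes, 0.04). The KitWsh response was called different from that of WT for 0 genes, where 0.00862% of all genes were called larger, with 9 larger at an unadjusted p under 0.05 (6.74% of all genes in either direction) and a median of 0.86. The KitWsh_MCifngR response was called smaller than that of KitWsh_MC for 0 genes, where 0.0172% of all genes were, with 19 smaller at an unadjusted p under 0.05 (10.1% of all genes in either direction) and a median of -1.44. For this last difference, 6 genes passed without KitWsh_MCigeR PBS array 2 (Rrm2, Mcm5, Ccne2, Ccna2, Cdca8 and Cdc20), where 0.604% of all genes did. Without KitWsh_MCifngR OVA array 4, 10 passed, but the share of all genes called in that fit is not given here.

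Arrays of OVA-treated mice were also compared directly. KitWsh_MC lungs were higher than KitWsh lungs in 6 of the 40 genes, where 5.46% of all genes were higher. The 5 with the smallest p were Ccne2 (1.64, adjusted p = 0.0127), Mcm5 (1.56, adjusted p = 0.0185), Mcm4 (1.09, adjusted p = 0.0187), Rrm2 (1.82, adjusted p = 0.0217) and Birc5 (1.36, adjusted p = 0.0436). The median over the 39 genes was 0.48 (over all genes, about 0). The count was 0 of the 40 without KitWsh_MC OVA array 2 or without KitWsh OVA array 3, and 3 without KitWsh_MC OVA array 3. Avoiding _x_at probe sets, it was 3. KitWsh lungs against WT lungs gave 0 called genes, where 0.0604% of all genes were called higher, with 15 higher at an unadjusted p under 0.05 (4.89% of all genes in either direction) and a median of 0.72. Each KitWsh OVA array was above each WT OVA array in 6 genes (Cenpa, Cenpf, Nusap1, Cdc20, Ube2c and Cdca3), which held for 2.06% of all genes.

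KitWsh_MCifngR lungs with OVA were lower than KitWsh_MC lungs with OVA in 4 of the 40 genes, where 2.77% of all genes were lower. These were Mcm4 (-1.39, adjusted p = 0.0032), Ccne2 (-1.93, adjusted p = 0.00363), Mcm5 (-1.61, adjusted p = 0.0128) and Rrm2 (-1.77, adjusted p = 0.0207), and the median over the 39 was -0.43. Mcm4, Mcm5 and Rrm2 were read by _x_at probe sets, which can match several genes, and avoiding such probe sets left 1 called gene. Without KitWsh_MCifngR OVA array 4 the count was 10, and without KitWsh_MC OVA array 2 it was 2. The shares of all genes called in those fits are not given here. KitWsh_MCigeR lungs with OVA were lower than KitWsh_MC lungs with OVA in 7 of the 40 genes, where 1.64% of all genes were lower. The 5 with the smallest p were Rrm2 (-2.15, adjusted p = 0.0186), Birc5 (-1.81, adjusted p = 0.0202), Mcm5 (-1.76, adjusted p = 0.0206), Ccna2 (-1.85, adjusted p = 0.0208) and Cdca8 (-1.80, adjusted p = 0.0218), and the median was -0.77. Each KitWsh_MCigeR OVA array was below each KitWsh_MC OVA array in 16 genes, which held for 5.08% of all genes. Without KitWsh_MCigeR PBS array 2 the count of calls was 16, where 7.6% of all genes were lower, without KitWsh_MC OVA array 2 or KitWsh_MCigeR OVA array 2 or 3 it was 0, and without KitWsh_MCigeR OVA array 4 it was 2. Avoiding _x_at probe sets gave 4.

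The PBS groups were compared in the same way. KitWsh_MC PBS lungs had lower values than KitWsh PBS lungs in 32 of the 39 genes, with a median of -0.36 (over all genes, about 0), but 0 passed, where 0.672% of all genes were higher and 0.526% lower. At an unadjusted p under 0.05, 5 were lower and 1 higher, where 12.8% of all genes reached it in either direction. The groups were apart in 14 genes with KitWsh_MC lower, where 20.6% of all genes were, and in 4 genes with KitWsh_MC higher, where 8.02% of all genes were. Nusap1 had the most negative difference, with 3.83, 4.23 and 4.76 in KitWsh_MC PBS lungs, against 6.29, 6.29 and 5.71 in KitWsh PBS lungs (-1.82 ± 0.48, adjusted p = 0.0512). KitWsh PBS lungs against WT PBS lungs gave 0 called genes, where 0.75% of all genes were higher and 0.431% lower, with 2 lower at an unadjusted p under 0.05 (12.2% of all genes) and a median of -0.01. For Ube2c and Melk, all KitWsh_MC PBS arrays were below all other PBS arrays, which held for 0.572% of all genes. The comparisons of a kind share arrays with its OVA and PBS comparisons, so they are not independent of each other.

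Other cell cycle genes were read by lists from the same pathway. In KitWsh_MC lungs, where 3.88% of all genes tested rose and 2.64% fell, 20 of 49 other mitosis genes rose and 0 fell. Of these 49, 31 were tested, and the median over the measured ones was 1.17. The raised ones included Aspm, a spindle pole protein (3.15 ± 0.51, adjusted p = 0.000436), Cep55, needed for abscission (2.70, adjusted p = 0.00107), Cdca5, or sororin, which guards cohesion (3.19, adjusted p = 0.00173), and the kinetochore gene Spc25 (2.45, adjusted p = 0.00174). Of 30 other replication genes, 20 were tested, 6 rose and 0 fell, with a median of 0.76. The clearest was Uhrf1, which copies DNA methylation onto new strands (3.11 ± 0.46, adjusted p = 0.000231). Of 18 E2F, MuvB and FoxM1 regulators, 14 were tested, 3 rose (E2f1, E2f7 and Ezh2) and 1 fell (Lin52), with a median of 0.34. E2f1 rose by 1.92 (adjusted p = 0.000672). Of 8 G1 cyclins and kinases, Myc (0.97) and Cdc25a (0.89) rose. Of 17 cell cycle inhibitors, 15 were tested, Rbl1 (1.22), an RB relative, rose, and the median was -0.08. In WT lungs, 1 gene of these 5 lists was called, Stmn1, which fell by 0.53 (adjusted p = 0.0458), and in KitWsh lungs 0 were. At an unadjusted p under 0.05, 12 of the 88 tested genes of the 5 lists (13.6%) differed in WT lungs, 4 higher and 8 lower, where 15.5% of all genes did. In KitWsh lungs 12 of the 88 did too, 8 higher and 4 lower, where 13.1% of all genes did.

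Markers of other cell types moved in the same KitWsh_MC lungs, where 3.88% of all genes tested rose and 2.64% fell. Of 13 monocyte and macrophage markers, 6 rose and 0 fell in KitWsh_MC lungs, with a list mean of 8.90 to 10.35 with OVA, against 8.29 to 8.34 with PBS. The same list mean was 8.38 to 10.49 in WT OVA lungs, against 8.38 to 8.60 in WT PBS lungs, where 0 of the 13 were called (5 higher and 1 lower at an unadjusted p under 0.05). KitWsh_MC OVA array 2, with a beta-actin difference of 6.23, had the lowest macrophage mean (8.90) of its group. Its goblet cell, alveolar type 2 and endothelial list means (7.96, 12.87 and 9.69) were the lowest too. Its T cell and erythroid list means (5.46 and 5.87) were the highest. Its division mean (6.56) was the lowest, near the 6.64 to 6.69 of the others. It was the highest of its group in 14 of the 39 division genes and the lowest in 20. Of 10 mast cell markers, 3 rose in KitWsh_MC lungs (Cma1, Cpa3 and Tpsb2), with a list mean of 5.84 to 6.57 with OVA, against 4.74 to 5.16 with PBS. In KitWsh_MCifngR lungs Cpa3 and Rab27b rose, and this list mean was 6.03 to 7.80 with OVA, against 5.03 to 5.62 with PBS. It was 5.11 to 5.49 against 4.60 to 5.01 in KitWsh_MCigeR lungs, and the groups overlapped in WT and KitWsh lungs. Of 8 goblet cell markers, 5 rose in KitWsh_MC lungs. Such a rise was also seen in WT lungs, where Agr2, Clca1, Fcgbp and Slc26a4 rose. The WT goblet list mean was 6.45 to 9.68 with OVA, against 4.44 to 5.64 with PBS. Of 10 plasma cell markers, 9 were measured. In KitWsh_MC lungs Fkbp11 rose (1.80 ± 0.42, adjusted p = 0.00838) and 5 were higher at an unadjusted p under 0.05. The list mean was 9.01 to 9.40 with OVA, against 8.26 to 8.29 with PBS, without overlap. In WT lungs Fkbp11 rose too (1.77 ± 0.38, limma, adjusted p = 0.0174), and the list means overlapped (7.89 to 9.39 against 7.53 to 8.19). The KitWsh list means, 8.95 to 9.56 with OVA against 8.29 to 8.55 with PBS, did not overlap. Of 10 alveolar macrophage markers, 6 were measured, Marco (2.64) and Fabp4 (2.48) rose and Siglecf fell by 1.38, with a list mean of 8.94 to 9.93 with OVA, against 8.58 to 8.85 with PBS. The neutrophil marker Il1r2 (1.78) rose, but the neutrophil list mean did not, with 5.68 to 6.30 with OVA, against 6.15 to 6.68 with PBS. The smooth muscle marker Acta2 (0.75) rose and the fibroblast marker Pdgfra fell by 0.87. Their shared list mean overlapped, with 10.41 to 11.13 with OVA, against 10.53 to 10.94 with PBS. The T cell, B cell, germinal centre B cell, NK cell, erythroid, basal airway, alveolar type 2 and endothelial lists had 0 called members in these lungs, and at an unadjusted p under 0.05 the germinal centre list had 1. The T cell list mean was 4.99 to 5.46 in KitWsh_MC OVA lungs, against 4.99 to 5.11 in KitWsh_MC PBS lungs, and 5.36 to 6.48 in KitWsh OVA lungs, against 4.97 to 5.33 in KitWsh PBS lungs. The germinal centre list mean stayed near 5 in all of these groups. The part of these cell types in the division genes was not tested, since the arrays measured whole lung.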

How the data were processed

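RNA of 36 mouse lung samples was hybridised to single-colour arrays, 1 array a sample, in 10 groups of 3 or 4. Per the submitters' processing notes, the authors used GCRMA (version not given in the sources used here), and what they deposited is 1 log2 intensity per probe set and array. This method estimates background from probe sequences, equalises the arrays by quantiles and combines the probes, so the lowest values are set by its background model. Deposited values ran from 2.19 to 15.9 and were used as they are.

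Control probe sets (64 of 45101) were left out. The platform annotation named 1 gene for 34945 of the rest, several for 932 and none for 9160. The probe set of highest mean stood for its gene, and 11599 of 18193 genes exceeded log2 5 in at least 3 arrays. A linear model of 10 group means was fitted with limma 3.58.1 (R 4.3.3; 26 residual degrees of freedom) and gave 16 comparisons, whose p-values were two-sided and Benjamini-Hochberg adjusted over the 11599 genes. The number of arrays limits the precision. The members and gene lists were chosen with earlier results of these data known. Values in every array are given for the 2 members a role with the smallest p in the mean response over 5 kinds, plus Mki67, and called members are named by smallest p. Ccna2, Pcna, Ccnb2 and Aurka were given array values after their values were seen. Alternatives covered normalisation, centring, the filter, probe set choice, array weights, RNA quality and left-out arrays. Of these, leaving out both arrays of low RNA quality, avoiding _x_at probe sets and the mean over 4 kinds were chosen after seeing the data. Low RNA quality was judged by the beta-actin difference alone. The procedure was tested on simulated data with known changes.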

Additional observations from a re-analysis of the deposited data

Results flagged for a closer look

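In groups of 4 arrays, the gap between an extreme array and its neighbour was set against the range of its group for 17 values (16 genes, picked by smallest p in the mean response within each role, with Mki67, and the mean over the 39 genes) in 6 groups. Of these 102 checks, 12 passed Dixon's limit, which chance alone passes in about 1 of 20 groups.

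KitWsh_MCifngR OVA array 4 was the high one in 6 of the 12. It read 9.88 for Rrm2 (the other 3 arrays 7.74 to 7.99), 10.54 for Mcm5 (8.84 to 9.11), 7.61 for Bub1b (5.12 to 5.39), 7.69 for Cdca8 (5.77 to 5.98), 7.04 for Cdca3 (4.79 to 5.02) and 7.43 for the mean over the 39 genes (5.68 to 5.92). KitWsh OVA array 3 was the low one for Rrm2, at 7.12 (the others 8.73 to 8.76), and for Mcm5, at 8.55 (9.68 to 9.76). In KitWsh_MC OVA lungs, array 4 was high for Kif23, at 7.10 (6.72 to 6.75), and array 2 was low for Ube2c, at 5.13 (6.80 to 7.02). KitWsh_MCigeR OVA array 1 was high for Ube2c, at 6.74 (5.38 to 5.57), and WT PBS array 2 was low for Tk1, at 3.97 (4.29 to 4.31).

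The response to OVA differed between KitWsh_MC and WT mice in a test of the difference itself for Ccna2 (3.33 ± 0.65, adjusted p = 0.0408) and Bub1 (2.67 ± 0.50, adjusted p = 0.0247).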

How the results depend on the processing

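In KitWsh_MC lungs the count of 20 raised genes ranged from 17 to 28 over the alternatives that kept both groups whole or left out arrays of doubt, and the 16 genes picked by role (Mki67 and those of smallest p in the mean response, which includes this rise) stayed higher with OVA in all 299 values computed for them there. Leaving out 1 array at a time gave 12 to 20 genes in KitWsh_MC, 0 in WT, 0 to 1 in KitWsh, 0 in KitWsh_MCifngR, 0 to 13 in KitWsh_MCigeR and 7 to 18 in the mean of 5 kinds. For the differences of response it gave 0 for KitWsh minus WT, 0 to 3 for KitWsh_MC minus WT, 0 for KitWsh_MC minus KitWsh and 0 to 10 for KitWsh_MCifngR minus KitWsh_MC. Between OVA groups it gave 0 for KitWsh minus WT, 0 to 5 for KitWsh_MC minus KitWsh, 2 to 10 for KitWsh_MCifngR minus KitWsh_MC and 0 to 10 for KitWsh_MCigeR minus KitWsh_MC, and 0 for both PBS pairs. Shares of all genes are given in this section only for array weights, so the counts of the other settings lack that background. The other counts that moved were as follows, in genes called, and the cause was not tested. Without KitWsh_MCigeR PBS array 2 they were 2 in WT, 2 in KitWsh, 0 in KitWsh_MCigeR, 8, 2 and 6 for the responses of KitWsh_MC against WT, of KitWsh_MC against KitWsh and of KitWsh_MCifngR against KitWsh_MC, 11, 7 and 16 for the OVA pairs KitWsh_MC minus KitWsh, KitWsh_MCifngR minus KitWsh_MC and KitWsh_MCigeR minus KitWsh_MC, and 3 for PBS KitWsh_MC minus KitWsh. Without that array, WT OVA array 4 and KitWsh_MCifngR OVA arrays 2 and 3 they were 2 in KitWsh, 0 in KitWsh_MCigeR, 21 in the mean of 5 kinds, 8 and 3 for the KitWsh_MC response against WT and KitWsh, 11 and 16 for OVA KitWsh_MC minus KitWsh and KitWsh_MCigeR minus KitWsh_MC, and 2 for PBS KitWsh_MC minus KitWsh. Array weights gave 9 in WT (5 higher and 4 lower, where 44% of all genes were called), 24 in KitWsh (39.8%), 28 in KitWsh_MC (31.4%), 2 in KitWsh_MCifngR (1 higher and 1 lower, 17.5%), 0 in KitWsh_MCigeR (0.879%), 24 in the mean of 5 kinds (23 higher and 1 lower, 49.7%), 18, 19, 6 and 24 for the 4 differences of response (21.7%, 4.65%, 19.1% and 21.7%), 18, 10, 17 and 16 for the 4 OVA pairs (7.25%, 30.2%, 36.6% and 14.6%), and 6 and 8 for the PBS pairs (41.8% and 33.8%, in both directions). With the beta-actin difference as a covariate they were 2 in WT, 2 in KitWsh, 0 in KitWsh_MCigeR, 8 and 1 for the responses of KitWsh_MC minus WT and KitWsh_MCifngR minus KitWsh_MC, 8 and 12 for OVA KitWsh_MCifngR and KitWsh_MCigeR minus KitWsh_MC, and 1 and 2 for the PBS pairs. Without both arrays of low RNA quality they were 2 in WT, 2 in KitWsh, 0 in KitWsh_MCigeR, 10 and 1 for those same responses, 13 for OVA KitWsh_MCigeR minus KitWsh_MC, and 1 and 4 for the PBS pairs. Fits of only the groups compared gave 2 in WT, 2 in KitWsh, 0 in KitWsh_MCigeR, 2 and 14 for the responses of KitWsh and KitWsh_MC minus WT, 1 and 1 for OVA KitWsh_MC minus KitWsh and KitWsh_MCifngR minus KitWsh_MC, and 5 and 8 for the PBS pairs. No filter and the mean of the probe sets of a gene each gave 0 in WT and 0 in KitWsh_MCigeR, and 1 for the response of KitWsh_MC minus WT, as did median centring and a filter of 6. The mean of probe sets gave 3, and avoiding _x_at probe sets 4, for OVA KitWsh_MCigeR minus KitWsh_MC. Avoiding them gave 3 and 1 for OVA KitWsh_MC minus KitWsh and KitWsh_MCifngR minus KitWsh_MC. Quantile normalisation gave 1 for PBS KitWsh_MC minus KitWsh, and the mean over the kinds other than KitWsh_MC gave 0. No paired analysis was possible because the replicate numbers were given in the order of the samples and pair nothing. Aurka, Aurkb, Plk1, Ttk and Melk, with means of 2.53 to 3.29 over the 36 arrays, lie close to the background model, which limits what the array can show for them.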
